A study of Mus musculus with 6 samples.

Results

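The aminoacyl-tRNA synthetases of mouse embryonic stem cells (mESCs) were examined as a named list of 36 genes, 20 cytosolic and 16 mitochondrial (gene names with the suffix 2), out of 16318 genes with a gene identifier in the table of probe sets. The members were chosen by name and not by a measured value. Rows were taken by gene symbol or by gene identifier, which gave 69 probe sets, and each gene is described by its brightest probe set. RNA had been hybridised to 6 Affymetrix whole-genome mouse arrays, 3 of wild-type (WT) mESCs and 3 of Alkbh1-/- mESCs, all C57BL/6, at passage 8 and day 0, that is undifferentiated and kept with leukemia inhibitory factor without further treatment. The lines were derived from littermate blastocysts of heterozygous parents and grown on irradiated mouse embryonic fibroblasts, and the labels name 1 set of numbered arrays for each genotype, so a difference between genotypes cannot be told apart from a difference between lines. No label says that the arrays of a genotype come from separate cultures.

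Aminoacyl-tRNA synthetases join each amino acid to its tRNA and so set the meaning of the genetic code. Most amino acids have one enzyme for the cytosol and another, also encoded in the nucleus, that is imported into mitochondria. The enzymes fall into a pair of unrelated structural classes, class I and class II, and several cytosolic ones are held in a multisynthetase complex. Genes for many cytosolic synthetases are known targets of ATF4, the transcription factor of the amino acid response. ALKBH1, the product of the deleted gene, is a dioxygenase that has been studied on histones, on DNA and on tRNA.

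The promoters of the list were compared first, because they show a feature that the choice of genes did not use. RefSeq promoter windows (build GRCm38.p6, 250 bases before to 50 after the annotated start, 300 in all) were at hand for 13 cytosolic and 14 mitochondrial genes. The core of the amino acid response element, bound by C/EBP and ATF factors, was searched as TGATGNAA on both strands. A gene was counted when any of its windows held a match. The motif was present in 5 of the 13 cytosolic genes (38.5%), Aars, Gars, Iars, Tars and Yars, and in 0 of the 14 mitochondrial genes. Among 17491 protein-coding genes with a window, 723 (4.13%) held it, and among all 27025 genes 1219 (4.51%). The 5 windows are printed 5′ to 3′ on the strand of the gene, with the matches in capitals, because they are the cytosolic promoters that carry the element.
Aars (chr8:111033592-111033891, plus strand): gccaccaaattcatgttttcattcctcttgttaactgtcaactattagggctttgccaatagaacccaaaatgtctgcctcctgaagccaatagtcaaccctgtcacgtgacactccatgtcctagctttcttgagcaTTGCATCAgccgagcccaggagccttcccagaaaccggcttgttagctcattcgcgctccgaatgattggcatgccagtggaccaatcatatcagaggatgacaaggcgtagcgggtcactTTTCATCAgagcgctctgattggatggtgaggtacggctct
Gars (chr6:55037751-55038050, plus strand): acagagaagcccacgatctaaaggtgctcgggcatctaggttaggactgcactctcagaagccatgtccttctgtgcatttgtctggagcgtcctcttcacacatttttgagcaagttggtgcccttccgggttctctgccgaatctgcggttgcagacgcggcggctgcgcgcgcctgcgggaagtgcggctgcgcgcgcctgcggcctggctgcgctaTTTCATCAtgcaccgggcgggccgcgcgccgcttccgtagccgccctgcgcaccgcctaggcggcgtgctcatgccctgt
Iars (chr13:49681880-49682179, plus strand): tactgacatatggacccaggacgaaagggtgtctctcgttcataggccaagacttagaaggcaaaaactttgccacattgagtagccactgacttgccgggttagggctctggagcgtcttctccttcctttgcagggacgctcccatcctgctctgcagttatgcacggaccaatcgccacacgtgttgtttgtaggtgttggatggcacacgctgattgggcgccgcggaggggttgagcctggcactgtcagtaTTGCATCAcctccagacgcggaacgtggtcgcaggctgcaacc
Tars (chr15:11399609-11399908, minus strand): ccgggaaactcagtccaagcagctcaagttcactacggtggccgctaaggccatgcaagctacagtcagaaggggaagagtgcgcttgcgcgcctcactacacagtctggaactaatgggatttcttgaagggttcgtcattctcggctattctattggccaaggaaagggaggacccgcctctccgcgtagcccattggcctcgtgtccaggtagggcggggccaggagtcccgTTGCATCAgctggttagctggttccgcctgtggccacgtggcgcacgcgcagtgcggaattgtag
Yars (chr4:129189653-129189952, plus strand): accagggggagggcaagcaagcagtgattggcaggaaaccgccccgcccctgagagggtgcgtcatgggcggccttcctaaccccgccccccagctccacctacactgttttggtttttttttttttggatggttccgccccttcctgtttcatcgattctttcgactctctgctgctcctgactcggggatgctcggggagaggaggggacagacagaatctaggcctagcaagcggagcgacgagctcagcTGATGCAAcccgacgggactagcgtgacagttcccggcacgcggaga
Aars held 2 matches and the other genes 1 each. Counted on the strand of the gene with the first base after the 250 upstream bases as 0, the first match began at -112 in Aars, -30 in Gars, -15 in Tars, 3 in Yars and 7 in Iars.

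Other motifs were less divided between the lists, and of these the E-box was the most divided. The E-box CACGTG, read by MYC and related factors, was found in 4 of 13 cytosolic genes (30.8%), Aars, Farsb, Iars and Tars. It was found in 1 of 14 mitochondrial genes (7.14%), Ears2, and in 8.91% of protein-coding genes. The ETS motif CCGGAAG was found in 5 cytosolic genes (38.5%) and 4 mitochondrial genes (28.6%), against 12.9% of protein-coding genes. The core of the NRF1 motif, searched as CGCANGCG, was found in 6 cytosolic genes (46.2%) and 4 mitochondrial genes (28.6%), against 12.5%. A match describes the letters of the window and is not evidence of binding, and the counts are small. Matches of different motifs overlapped in 0 cases among the windows of the members.

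**Figure D1:**
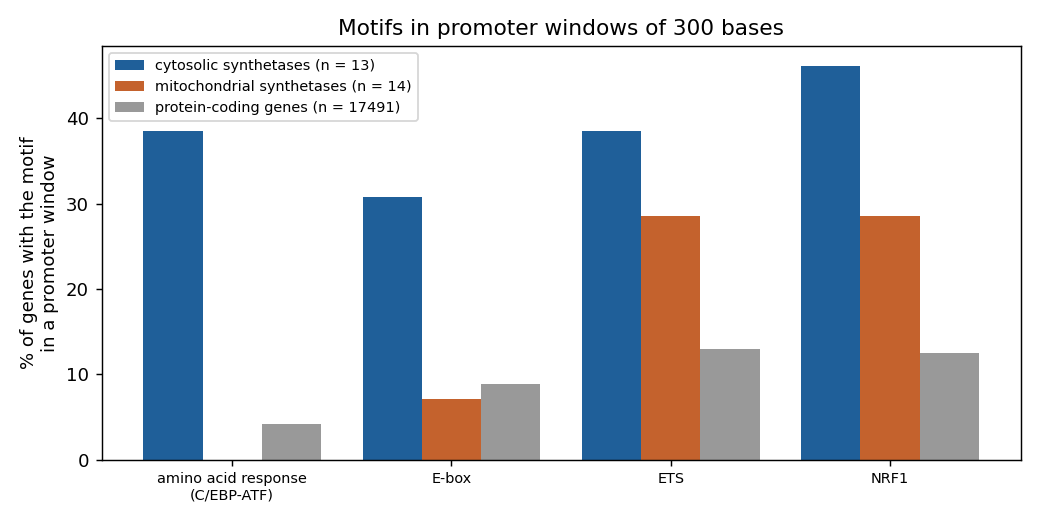
Share of genes (in percent, vertical axis) with each of 4 motifs in a promoter window, for 13 cytosolic synthetases, 14 mitochondrial synthetases and 17491 protein-coding genes. The amino acid response motif was in 38.5% of the cytosolic genes, in 0 of the mitochondrial genes and in 4.13% of protein-coding genes.

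The values of expression are pooled. For each probe set there is a mean log2 value over all 6 arrays, and for a part of the probe sets also a geometric mean intensity in each genotype. Single arrays were not analysed here, so no spread between replicates, standard deviation or test accompanies a value. The mean log2 values of the 33142 probe sets ran from 3.22 to 14.67, with a median of 6.31 and an upper quartile of 8.38. The brightness of a probe set depends on the sequences of its probes as well as on the transcript, so the values place each probe set on the array and are not an order of transcript abundance.

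Cytosolic synthetases had bright probe sets on the arrays of undifferentiated mESCs, which were grown on feeder fibroblasts. All 20 brightest probe sets were above the upper quartile of the table, with a median mean log2 value of 11.41 (range 8.93 to 12.15), and 14 were above 11, a value reached by 5.47% of all probe sets. The mitochondrial synthetases had a median of 7.75 (range 4.26 to 9.87), with 5 of 16 above the upper quartile, 14 above the median of all probe sets and 0 above 10. For comparison, the brightest probe set of each of the 16318 genes had a median of 6.99 and an upper quartile of 8.94. Of the cytosolic genes, Yars (8.93) was just below this upper quartile. Of the mitochondrial genes, only Rars2, Tars2 and Yars2 were above it. The ranges of the lists overlapped: 3 mitochondrial genes (Rars2, Tars2 and Yars2) lay at or above the dimmest cytosolic gene, and 5 cytosolic genes (Cars, Farsa, Vars, Wars and Yars) lay at or below the brightest mitochondrial gene. No test was made between the lists, since genes are not replicates and different probe sets are not on a common scale.

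**Figure D2:**
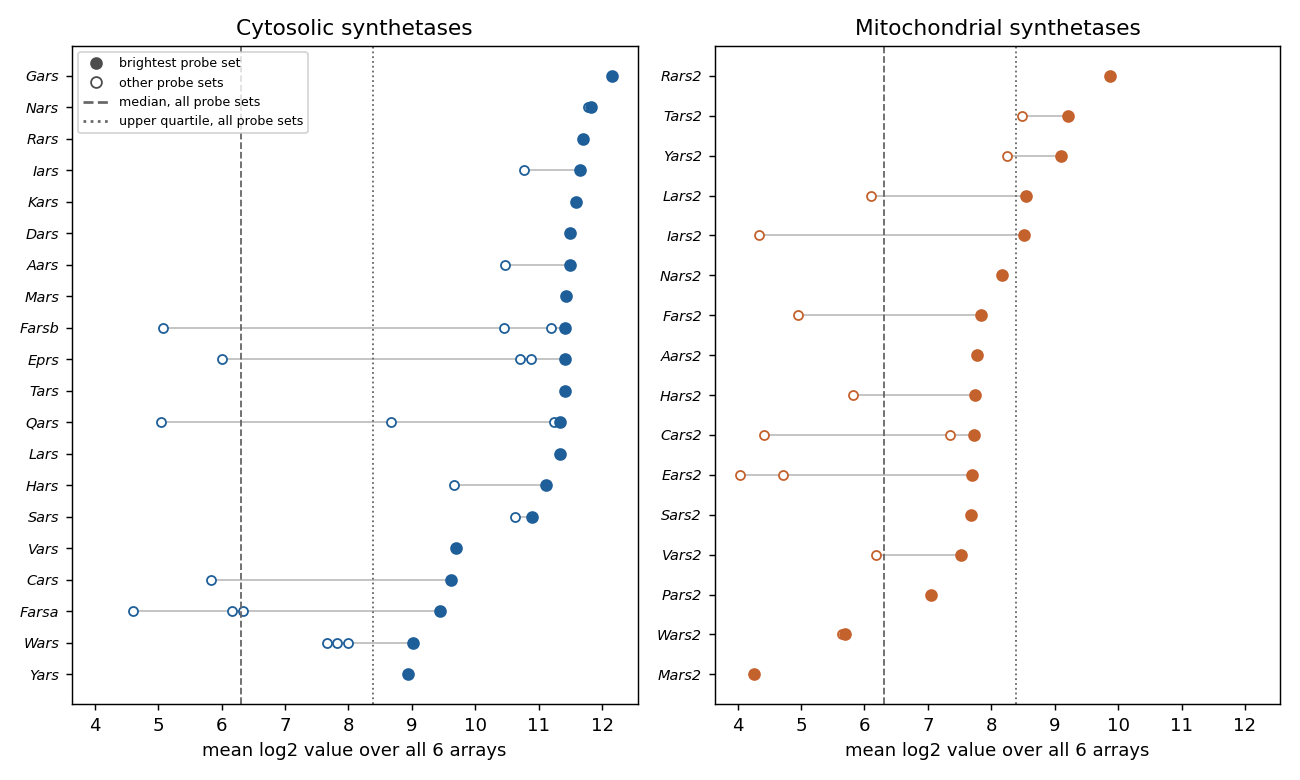
Mean log2 value over all 6 arrays (horizontal axis) of every probe set of the 20 cytosolic and 16 mitochondrial synthetases. Filled points are the brightest probe set of a gene, open points its other probe sets, and the dashed and dotted lines are the median (6.31) and the upper quartile (8.38) of all 33142 probe sets; every filled cytosolic point lies to the right of the upper quartile.

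The brightest probe sets of the synthetases in the multisynthetase complex had close values. The complex holds the bifunctional glutamyl-prolyl enzyme (Eprs) and the enzymes for aspartate (Dars), isoleucine (Iars), lysine (Kars), leucine (Lars), methionine (Mars), glutamine (Qars) and arginine (Rars). In these 8 genes the mean log2 values lay between 11.34 and 11.69, a range of 0.36. The values were 11.69 for Rars, 11.65 for Iars, 11.60 for Kars and 11.49 for Dars. They were 11.44 for Mars, 11.42 for Eprs and 11.34 for both Qars and Lars. Kars, the lysyl enzyme, also serves mitochondria. The closeness depended on the choice of probe set: with the mean of all probe sets of a gene the range was 2.62, and without probe sets of shared suffix it was 0.93. The scaffold proteins of the complex, Aimp1, Aimp2 and Eef1e1, were at 11.29, 10.60 and 11.80.

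The other 12 cytosolic genes covered a range of 3.22 around a median of 11.01. Gars, the glycyl enzyme, which also serves mitochondria, had the highest value of the list at 12.15, at percentile 97.9 of all probe sets. Nars (asparagine) followed at 11.82, with a further probe set at 11.78, and Aars (alanine) was at 11.49. Farsb and Farsa encode the beta and alpha subunits of the phenylalanyl enzyme, which assemble in equal number, and their brightest probe sets were at 11.42 and 9.44. Tars (threonine), Hars (histidine) and Sars (serine) were at 11.41, 11.11 and 10.90. Vars (valine) was at 9.69 and Cars (cysteine) at 9.62. The lowest values were those of Wars (tryptophan) at 9.01 and Yars (tyrosine) at 8.93. Yars, the dimmest of the cytosolic list, is also one of the 5 genes with the amino acid response motif printed above.

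Among the mitochondrial enzymes, Rars2 (arginine) had the highest value at 9.87, followed by Tars2 (threonine) at 9.21 and Yars2 (tyrosine) at 9.09. Lars2 (leucine) and Iars2 (isoleucine) were at 8.54 and 8.52, and Nars2 (asparagine) at 8.17. A group of 7 genes was close together between 7.52 and 7.84: Fars2 (phenylalanine) at 7.84, Aars2 (alanine) at 7.77, Hars2 (histidine) at 7.74, Cars2 (cysteine) at 7.73, Ears2 (glutamate) at 7.69, Sars2 (serine) at 7.67 and Vars2 (valine) at 7.52. Pars2 (proline) was at 7.05. The remaining members were below the median of all probe sets, Wars2 (tryptophan) at 5.69 and Mars2 (methionine) at 4.26, the latter at percentile 13.4. Mars2 has a single probe set in the table, and the 2 probe sets of Wars2 were at 5.69 and 5.64.

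The structural classes had close medians within a compartment. They were 11.34 for the 10 class I and 11.45 for the 10 class II genes of the cytosol. They were 7.73 for the 9 class I and 7.77 for the 7 class II genes of the mitochondria.

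Probe sets of the same gene were often far apart. Of the 36 genes, 15 had 1 probe set and 21 had 2 to 4. In 8 genes the dimmest probe set was more than 3 below the brightest. The largest such gap was 6.34, in Farsb, whose probe sets ran from 5.08 to 11.42, and it was 6.30 in Qars and 5.41 in Eprs. In 6 genes all probe sets lay within 1 of each other, among them Nars, with a gap of 0.05. Of the 69 probe sets, 17 were below the median of the table. The brightest probe set of Aars, Iars, Farsb and Wars carries a suffix (_s_at or _x_at) that marks probes shared with other transcripts. Without such probe sets these genes were at 10.47, 10.77, 10.45 and 7.99, which puts Wars below the upper quartile of the table.

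The deleted gene was used to check the labels. At its brightest probe set (1434660_at), Alkbh1 had a geometric mean intensity of 761 in WT and 25.7 in Alkbh1-/- mESCs, a log2 difference (Alkbh1-/- minus WT, as throughout) of -4.89. At the other probe set (1438681_at) the intensities were 120 and 34.6, a log2 difference of -1.79. Both were lower in Alkbh1-/- mESCs, as labelled. Embryonic stem cell markers were bright, with 10 of 10 above the upper quartile of the table and mean log2 values from 10.05 to 14.49. Of the fibroblast markers, which the feeder layer expresses, 11 of 20 were above it. Eif2s3y, a Y-linked gene looked at after its values were seen, had geometric mean intensities of 751 in WT and 14.9 in Alkbh1-/- mESCs, so the lines also differed in Y-linked expression, whose part in the values below was not tested.

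A mean in each genotype was at hand for the probe sets of a class comparison, which lists 4326 of 45101 probe sets that passed a filter and a nominal p under 0.05. Among the probe sets of the larger table, 4261 of 33142 (12.9%) could be given such means. Of the 36 brightest probe sets of the synthetases, 0 were among them. Of all 69 synthetase probe sets, 1 was among them, a dim probe set of Fars2. In the range of brightness of the cytosolic members 11.6% of all probe sets had these means, and in that of the mitochondrial members 14.7%. The share was below this among the dimmest probe sets, highest (19.7%) at a mean log2 value between 6 and 7, and decreased from there to 8.71% between 11 and 12, where 13 of the 20 cytosolic genes lie. The smallest log2 difference of any listed entry was 0.37 in size, a 1.29-fold difference, and whether an absent probe set failed the filter or the p is not known here. Absence from the list therefore gives no size for a synthetase and does not show that its level was the same in WT and Alkbh1-/- mESCs.

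**Figure D3:**
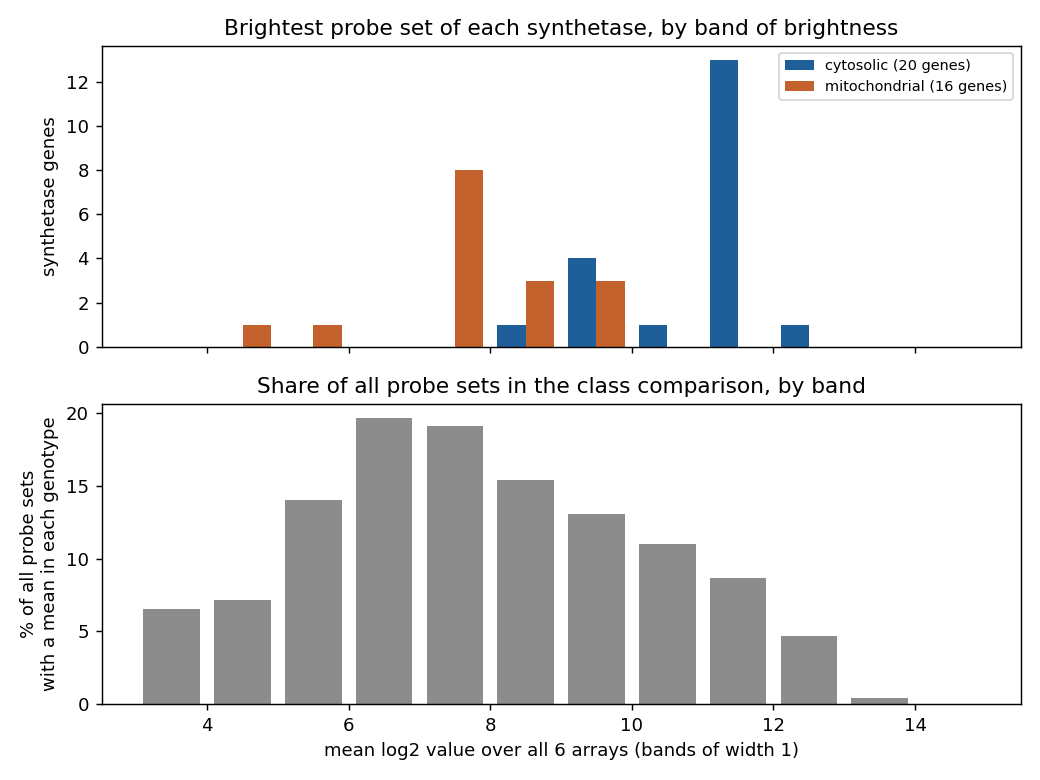
Upper panel, number of synthetase genes whose brightest probe set falls in each band of mean log2 value (width 1). Lower panel, percent of all probe sets in that band with a mean in each genotype; the percentage was highest between 6 and 7 (19.7%) and was 8.71% between 11 and 12, the band of 13 cytosolic genes, of which 0 had such means.

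The probe set of Fars2, the mitochondrial phenylalanyl enzyme, was 1439406_x_at, with a mean log2 value of 4.95, below the median of the table. The suffix of this probe set marks probes shared with other transcripts. Its geometric mean intensity was 26.4 in WT and 36.1 in Alkbh1-/- mESCs, a log2 difference of 0.45 (1.37-fold). The brightest probe set of the same gene, at 7.84, had no mean in each genotype. Among the 4261 probe sets with such means 63.2% were past a 1.5-fold difference (0.58 on the log2 scale), and this one was not. The other 68 synthetase probe sets have no such means. The deposited fold changes were not used, so the 68 are not set against that size here. Its place in the class comparison means that it met the nominal p under 0.05 there, which is not adjusted for the number of probe sets, and the spread between its arrays is not part of the pooled means.

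Genes that work beside the synthetases were looked at in the same way. The 3 scaffold proteins of the complex had 0 probe sets with a mean in each genotype. Of 11 genes that carry, edit or complete charged tRNAs, 2 had such means at the brightest probe set, where 14.2% of the 16318 genes with an identifier had them. With so few genes this count is near that share, and the values of both genes are given as a description. Qrsl1 encodes the catalytic subunit of the amidotransferase that makes glutaminyl-tRNA in mitochondria, where no separate glutaminyl-tRNA synthetase is used. Its geometric mean intensity was 573 in WT and 375 in Alkbh1-/- mESCs at 1456542_s_at, a log2 difference of -0.61. At its other probe set, 1429317_at, the intensities were 111 and 73.9, a log2 difference of -0.59. The probe sets of Qrsl1 thus had nearly the same difference, lower in Alkbh1-/- mESCs, at unlike brightness. The suffix of 1456542_s_at marks probes shared with other transcripts, so its value may not be of Qrsl1 alone.

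Dtd2, listed here among the genes that edit charged tRNAs, had differences in the other direction. The intensities were 30.6 in WT and 66.8 in Alkbh1-/- mESCs at 1453522_at (log2 difference 1.13) and 14.1 and 30.5 at 1430337_at (1.11). Both probe sets were dimmer than the median of the table, at mean log2 values of 5.50 and 4.38, the latter at percentile 15.9. The lowest value of the table is 3.22, so these differences lie near the floor. The remaining probe set of Dtd2 had no mean in each genotype. The partners of Qrsl1 in the amidotransferase, Gatb and Gatc, were at mean log2 values of 7.03 and 6.62 without means in each genotype. The elongation factors that carry charged tRNAs to the ribosome, Eef1a1 in the cytosol and Tufm in mitochondria, were at 14.38 and 9.68, also without them.

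**Figure D4:**
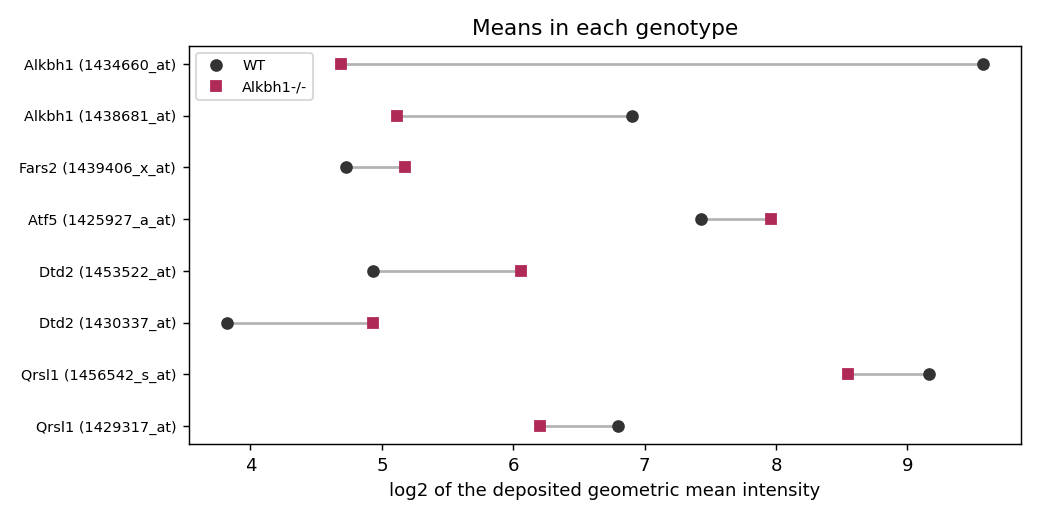
Log2 of the geometric mean intensity (horizontal axis) in WT (circles) and Alkbh1-/- (squares) mESCs for each probe set of Alkbh1, Fars2, Atf5, Dtd2 and Qrsl1 with a mean in each genotype; no error is shown because the values are pooled. Alkbh1 and Qrsl1 were lower and Fars2, Atf5 and Dtd2 higher in Alkbh1-/- mESCs.

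Most amino acid response genes other than synthetases also had bright probe sets. The list had 18 of 20 genes in the table, with a median mean log2 value of 10.04 (range 6.88 to 12.74). Of these genes, 15 were above the upper quartile of all probe sets, against 20 of 20 cytosolic synthetases. Asns (asparagine synthetase), Atf4 itself and Psat1 (serine synthesis) were at 12.74, 12.13 and 11.99, and Ddit3 and Chac1, which are induced under stress, were at 7.77 and 8.44. Of the 18, 1 had a mean in each genotype at the brightest probe set, against 14.2% of all genes. This was the transcription factor Atf5, with intensities of 172 in WT and 249 in Alkbh1-/- mESCs (log2 difference 0.54, or 1.45-fold). Atf4 and Asns were without such means.

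The cell type markers were counted at their brightest probe sets, beside the 14.2% of all genes with a mean in each genotype; no test was made. Of 10 stem cell markers, 5 had such means, 4 higher and 1 lower in Alkbh1-/- mESCs. Of 20 fibroblast markers, 10 had one, and all 10 were lower in Alkbh1-/- mESCs, with log2 differences from -1.11 to -0.52. Their intensities summed to 13790 in WT and 7585 in Alkbh1-/- mESCs, and the lowest mean log2 value of the list was 5.74. Such bulk samples do not show which cells these transcripts came from. Fewer fibroblasts and less RNA per fibroblast cannot be told apart in them, and neither was tested as a source of the lower values. The part of feeder RNA in the mean log2 values of the synthetases was not tested, nor was its part in the values of Qrsl1, Dtd2, Fars2 and Atf5.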

How the data were processed

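Arrays of 3 WT and 3 Alkbh1-/- samples were read with GCOS and normalized together by RMA, which the submitters' processing notes also name. The authors deposited a table with a mean log2 value over all arrays for 33142 probe sets, and a class comparison made by a service company with the geometric mean intensity of each genotype for 4326 probe sets; the larger table's filter and the rule behind the 7320 probe sets that passed the class comparison's filter are not given in the sources used here. Genotypes were taken from the column names and the accompanying description, which states that the WT class is mislabelled. Both tables also hold the comparison itself (fold changes, moderated statistics, p-values), which was not used. The number of arrays limits the precision.

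Values of the class comparison stand beside the wrong identifiers (8 of 4261 joined entries carry the same identifier in both tables). Entries were therefore joined to probe sets where the mean of the log2 group means lay within 0.000001 of the mean over all arrays. The planned tolerance, the rounding of the printed means, was narrower than the differences seen. As a check, 4258 of the 4261 identifiers shared by the tables belonged to a joined probe set, and after a shift of 0.01 in the mean, 31 entries were joined. On simulated data with 33142 probe sets and 4326 entries, 100.0% were joined to their own row. Every simulated entry had a row, and the simulated noise was smaller than the largest differences seen. Of the real entries, 65 were not joined, so the 100.0% is not the accuracy of the real join. By symbol and RefSeq gene identifier (assembly GRCm38.p6), all 36 members were found; 1 row with the symbol Kars and the identifier of another gene was left out. Named genes are the members, Alkbh1 and the listed pathway and marker genes. Members and lists were chosen with earlier results of these data known; the motifs were chosen during the work. No test was made. Python 3.11.15, pandas 2.3.3, NumPy 2.4.6 and matplotlib 3.10.9 were used.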

Additional observations from a re-analysis of the deposited data

How the results depend on the processing

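No paired analysis was possible because the values are means over arrays and carry no replicate numbers; for the same reason no array could be left out. The median mean log2 value over the members, 9.53, was 8.89 with the mean of all probe sets of a gene and 10.37 with the symbol alone, which found 6 of the 36 members; without probe sets of shared suffix, a setting chosen after seeing the data, it was 9.53. The median of the cytosolic list was above that of the mitochondrial list by 3.66 on the log2 scale, by 3.62 without Gars and Kars, by 3.92 with the mean of all probe sets and by 3.47 without probe sets of shared suffix. Allowing any probe set raised the number of members with a mean in each genotype from 0 to 1 (Fars2), and a join within 0.0001 left it at 0. Since no brightest probe set of a member has a mean in each genotype, the number of members past a fold of 1.5 was 0 by construction, also at 1.2 or 2 and after centring; the dim probe set of Fars2, at 1.37-fold, is past 1.2 but not 1.5. The range of the brightest probe sets over the 8 synthetases of the complex, 0.36, was 2.62 with the mean of all probe sets and 0.93 without those of shared suffix, and over the other 12 cytosolic genes 3.22, 5.52 and 4.17. Subtracting the median difference of all joined entries, 0.42, reversed none of the differences printed for Alkbh1, Fars2, Atf5, Dtd2 and Qrsl1, and left Fars2 at 0.03 and Atf5 at 0.12. The list holds no difference under 0.37 in size, so its median is not a centre of all probe sets. A difference between genotypes for cytosolic against mitochondrial members was not given. Only 1 synthetase probe set had a mean in each genotype, and the deposited fold changes, which could hold one, were not used.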
